A study of Mus musculus with 17 samples.

Results

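The cytosolic ribosomal protein genes encode the proteins of the large and small subunits of the ribosome that translates nuclear-encoded mRNAs. They were chosen by name, as protein-coding genes whose symbols are Rpl or Rps with a number, and at most the letter a, x or l, together with Rplp0, Rplp1, Rplp2 and Rpsa and without the Rps6k kinases. This gave 81 genes of 21887, of which 50 belong to the large subunit, the P-stalk included, and 31 to the small subunit. RNA polymerase II was immunoprecipitated with its bound DNA from mouse bone marrow-derived macrophages, cells grown out of marrow precursors, and the DNA was sequenced. The macrophages lacked N4bp1 (knockout, KO) or were wild type (WT). They had received R837 (imiquimod, a small molecule that stimulates the RNA sensor TLR7 of endosomes) for 2, 4 or 6 h or were untreated, which made 8 groups of 2 libraries and 16 libraries in all. N4BP1 restrains cytokine responses and is cleaved by caspase-8, as is known from earlier work. The labels do not give the N4bp1 allele, the number of animals or whether replicates came from separate cultures, so p-values measure only how far these libraries spread, and that spread may be technical.

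A ribosome holds 1 copy of nearly every ribosomal protein, so cells need these proteins in matched amounts and their genes are among the most transcribed of a growing cell. Their mRNAs typically begin with a C followed by a run of pyrimidines, the terminal oligopyrimidine (TOP) motif, through which mTOR signalling and the RNA-binding protein LARP1 set how much of the mRNA is translated. In macrophages, Toll-like receptor signalling is known to redirect transcription to cytokine and defence genes while ribosomal protein genes act as housekeeping genes.

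The sequence around the annotated start shows the TOP motif in the DNA under the polymerase. The stretches below run from 40 bases before the start to 20 bases from it, on the gene's own strand, with the C at the start and the pyrimidines that follow it in capitals. Rps27, Rps18, Rps15a, Rps10, Rpl15 and Rpl35 are shown because they carry the motif at the first base and span the ranks from the best members to the lower part of the list. Rps9 and Rplp0 are shown in lower case throughout, because they rank among the best members without a C and 4 pyrimidines at the annotated first base. For Rps9 the start used lies inside the gene span, which begins at 3703954, and a run of pyrimidines crosses it. The lack of the motif there thus depends on the start chosen.
Rps27, chr3:90213629-90213688, minus strand: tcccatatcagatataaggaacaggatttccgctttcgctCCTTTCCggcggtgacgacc
Rps18, chr17:33955646-33955705, minus strand: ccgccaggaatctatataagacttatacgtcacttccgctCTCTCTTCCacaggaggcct
Rps15a, chr7:118116128-118116187, minus strand: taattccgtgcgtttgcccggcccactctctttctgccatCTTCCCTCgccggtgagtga
Rps10, chr17:27635225-27635284, minus strand: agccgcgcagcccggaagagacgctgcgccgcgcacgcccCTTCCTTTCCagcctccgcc
Rpl15, chr14:18270967-18271026, minus strand: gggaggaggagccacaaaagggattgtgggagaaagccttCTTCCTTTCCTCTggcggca
Rpl35, chr2:39005112-39005171, minus strand: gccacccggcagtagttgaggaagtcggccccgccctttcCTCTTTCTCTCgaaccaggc
Rps9, chr7:3704001-3704060, plus strand: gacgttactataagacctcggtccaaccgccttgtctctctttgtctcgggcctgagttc
Rplp0, chr5:115559427-115559486, plus strand: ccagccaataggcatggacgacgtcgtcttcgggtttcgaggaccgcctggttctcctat

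These sequences and starts are RefSeq's for GRCm38.p6, which matched 61 of the 81 genes. Among those with no entry are Rpl30, Rpl7, Rpl32, Rps14, Rplp1, Rps29, Rpl36, Rpl23a, Rpl21, Rpl17, Rps27a, Rpl29, Rpl3, Rpl8 and Rps20. A C followed by 4 pyrimidines stood exactly at the start of 13 of the 61 ribosomal protein genes (21.3%), against 378 of 17486 genes with an entry (2.16%). Within 50 bases after the start such a run was present in 54 of the 61 (88.5%), against 51.6% of all entries. Of the 13 genes with the motif at the first base, 9 had a polymerase summit in every library. The letters CCGGAAG, a core bound by ETS factors, occurred on either strand of the 300-base promoter (250 bases before to 50 after the start) in 24 of the 61 (39.3%), against 11.9% of all promoters. The YY1 letters AAGATGG occurred in 14.8% against 6.35%, the GC box GGGCGG in 57.4% against 46.3%, and the CRE letters TGACGTC in 11.5% against 3.99%. TATAAA occurred in 11.5% against 13.3%, the E-box CACGTG in 8.20% against 7.91% and the NF-kB consensus in 3.28% against 4.57%. Matches of different motifs can share letters, as CCGGAAG and AAGATGG do where they abut, and a match describes the sequence only.

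The deposited lists give peak summits, 1 bp positions with the authors' score, and no read counts, so depth is unknown. The 16 lists held 8394 to 29760 summits, and each was shortened to its 8394 best. A gene's rank is the place of its best summit, within 1 kb of the gene, among these 8394, rank 1 being the best. The rank score is log2((8394 + 1) / rank), or 0 without a summit, and reaches at most 13.04. A rank places a gene within its library and is not an amount of polymerase, and fewer cells with polymerase at a gene cannot be told apart from less polymerase per cell. Between 91.5% and 96.2% of the summits of a list tied in score with another one, so ranks are coarse. Replicate 2 of KO at 6 h stood apart, with a highest score of 563.5 against at most 320.4 elsewhere and at most 0.0874% of its summits at a score found in any 1 other list. WT replicate 2 at 6 h had the shortest list. Codes in the peak names form 3 runs, which separate 4 h, 6 h and all remaining libraries, so a difference of 4 h or 6 h from untreated cannot be told apart from a difference between these runs. N4bp1 itself had summits in all 6 KO and all 6 WT treated libraries and in no untreated one, and as the deleted part is not given this does not check the genotype. Of 10 macrophage markers, 7 to 9 had a summit in treated and 9 in untreated libraries, with a summed rank score of 32.5 to 55.03 in treated and 39.1 to 42.7 in untreated libraries. Markers of erythroid and B cells, of mast cells or basophils, and of stroma had none in any shortened list, T and NK cell and neutrophil markers at most 1 and dendritic cell markers 1 to 3.

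In every library most ribosomal protein genes had a summit. In treated libraries 65 to 78 of the 81 had a summit (80.2% to 96.3%), and in untreated libraries 76 or 77 (93.8% to 95.1%). Of all protein-coding genes, 12.3% to 26.9% had one in treated and 29.4% to 30.6% in untreated libraries. A summit in all 16 shortened lists was found for 58 ribosomal protein genes (71.6%) and for 1117 of all genes (5.10%). The median best rank of ribosomal protein genes with a summit was 709 to 2072 in treated and 806.5 to 1401 in untreated libraries. That of all genes with a summit was 2868 to 3464.5 in treated and 3390.5 to 3485 in untreated libraries. The ribosomal protein genes are short, with a median length of 3175 bp against 17169 bp over all protein-coding genes.

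**Figure D1:**
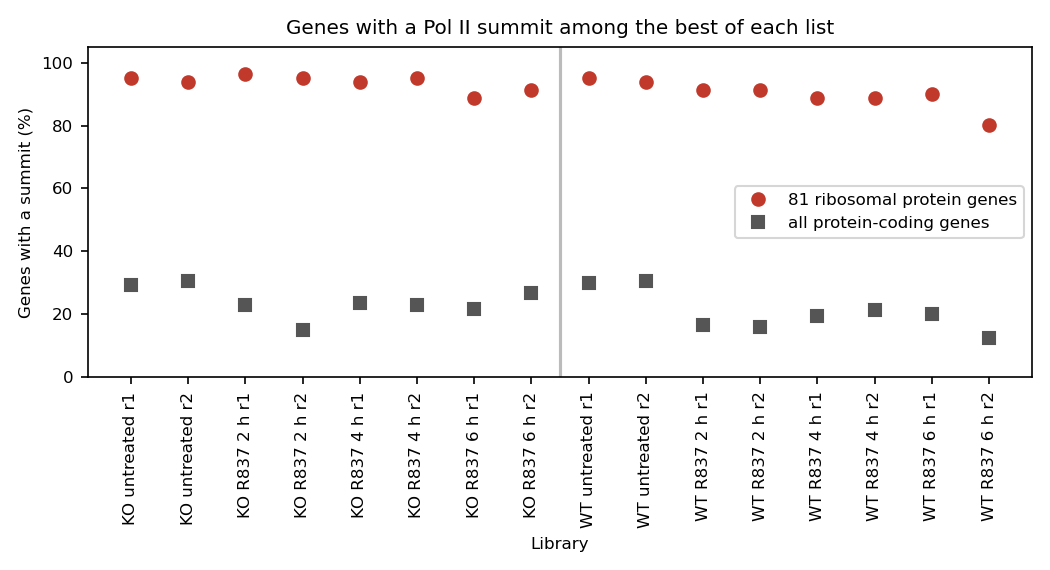
Percent of the 81 ribosomal protein genes (circles) and of all protein-coding genes (squares) with a summit in the shortened list of each of the 16 libraries, the 8 KO libraries left and the 8 WT libraries right. Ribosomal protein genes lie between 80.2% and 96.3% throughout, and all genes between 12.3% and 30.6%.

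The best-placed member was Rpl3, a large-subunit protein whose extension reaches the peptidyl transferase centre. It lies at chr15:80077781-80083406 and had a median rank of 22.5 over the 16 libraries, from 4 to 129. Rps9, a small-subunit protein near the mRNA entry channel, lies at chr7:3703954-3706897 on the plus strand and had a median rank of 90.5, from 38 to 716. Both were at the top of nearly every library, and replicate 2 of KO at 6 h gave the worst rank of each.

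Next came Rpl7a with a median rank of 178, Rps2, another protein of the mRNA entry channel, with 187.5, Rps27 with 209 and Rpl18 with 210. Rplp0, the base of the P-stalk that recruits the translation GTPases, had a median rank of 234.5, Rps18 had 248.5, Rps12 had 289 and the X-linked Rpl10, which joins the large subunit late in its assembly, had 352. Of the other P-stalk genes, Rplp1 had ranks of 784 to 5969 in treated and 1866 to 4862 in untreated libraries, and Rplp2 of 659 to 6195 in treated and 697 to 3417 in untreated libraries. Rplp0 thus had the best median rank of the P-stalk genes, but not at 6 h in KO macrophages, where its rank score was 1.71 ± 0.67 (SD, n = 2), against 2.98 ± 0.33 for Rplp1 and 2.31 ± 1.27 for Rplp2. A median rank of 1000 or better was reached by 32 members. Among the 10 best, the range of ranks over libraries of each gene overlapped that of its neighbours in this order.

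**Figure D2:**
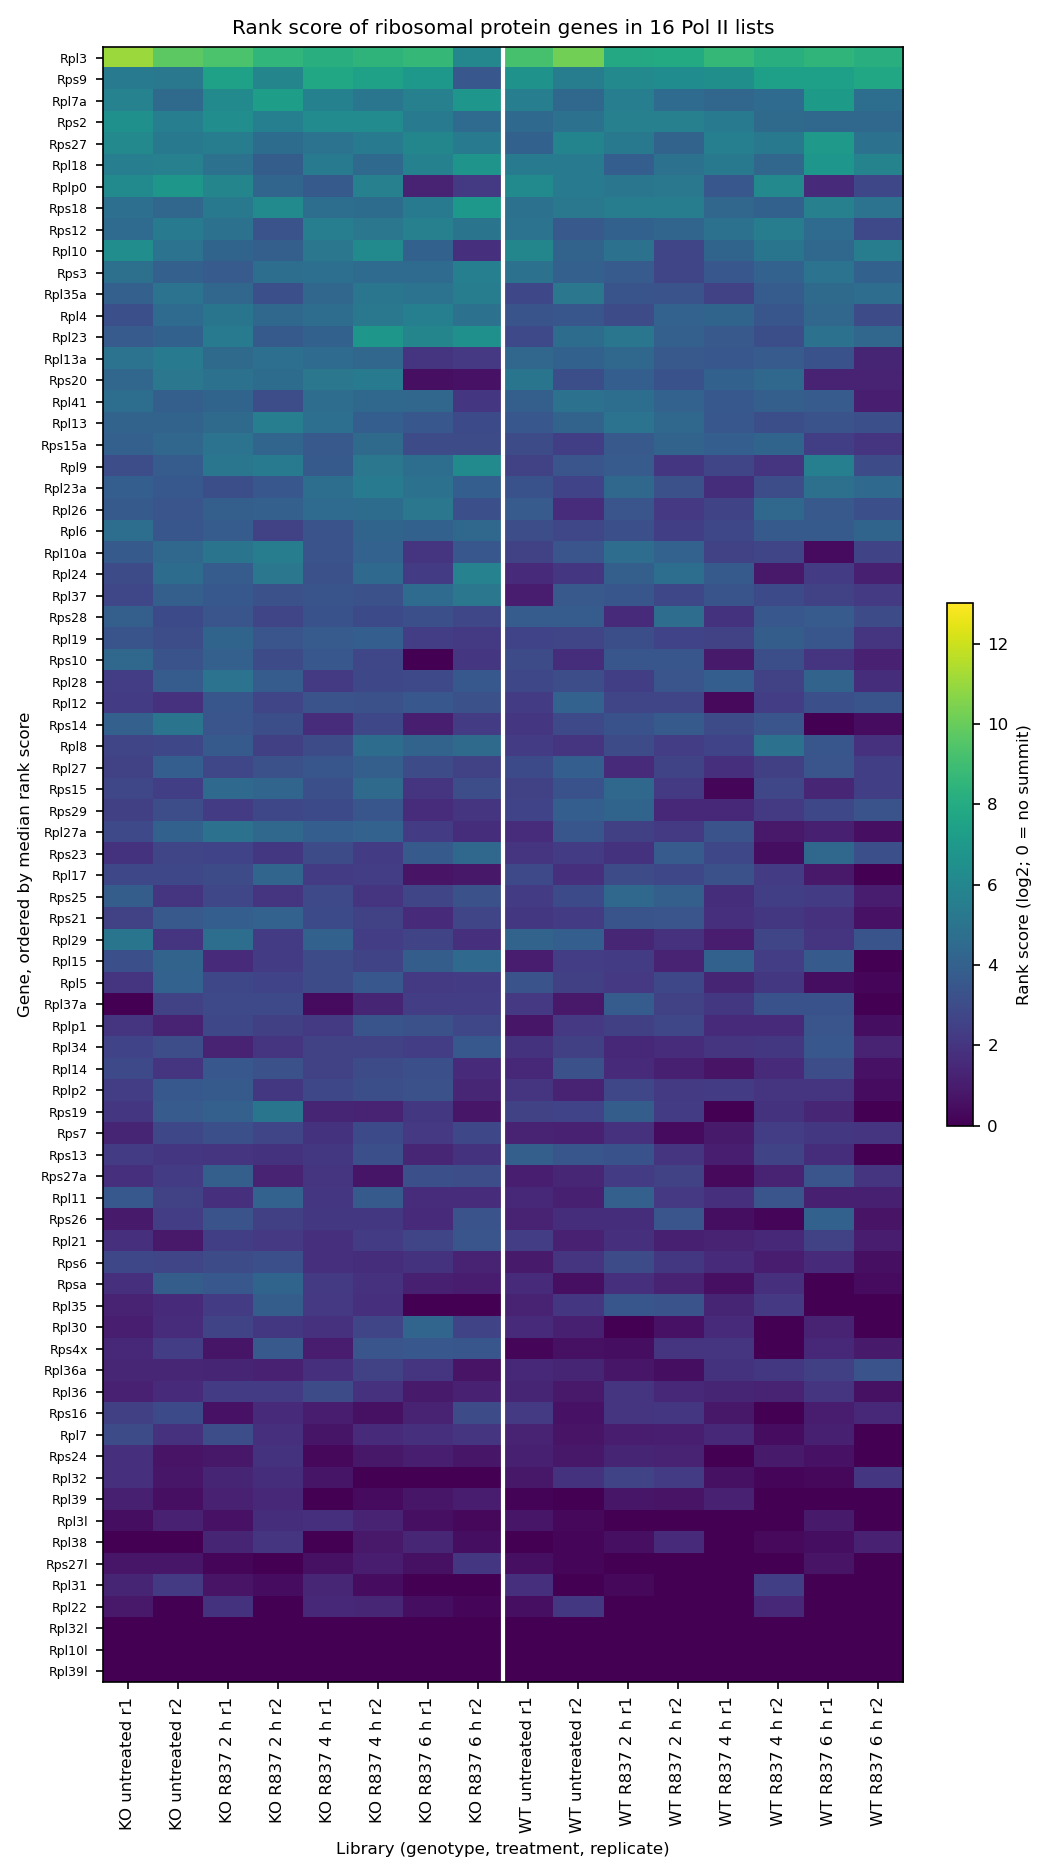
Rank score (colour, log2 scale, 0 for no summit) of 76 of the 81 ribosomal protein genes, in rows ordered by median, in the 16 libraries, the 8 KO columns left of the 8 WT columns and each ordered from untreated to 6 h. Rpl3 at the top is bright in all columns, and Rpl32l, Rpl10l and Rpl39l are empty.

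The lower end held the paralogs and a few core members. Rpl32l, Rpl10l and Rpl39l had no summit in any deposited list. Rpl10l and Rpl39l are known as testis-expressed relatives of X-linked ribosomal protein genes. Rps27l, a relative of Rps27 known as a p53 target, had a summit in 10 shortened lists with a median rank of 6555.5, and Rpl3l, the striated-muscle relative of Rpl3, had one in 11. The Rpl3l summits lay past its far end and were shared with the neighbouring gene Msrb1, so they may not belong to Rpl3l. Among core members, Rpl22, Rpl31, Rpl38 and Rpl39 had a summit in 10, 9, 12 and 11 shortened lists. The annotation also holds 318 pseudogenes named after ribosomal proteins. Of these, 4 had a summit in any deposited list, 3 of them outside every protein-coding gene region, and none had one in all 16. The handling of reads that map to several places is not given in the sources used here, so reads from retained copies cannot be separated from this pattern.

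Neighbouring genes limit how some of these ranks can be read. The best summit of 55 members lay in no other protein-coding gene region in any list, while 16 members shared it in most of their lists. Rpl7a shared it with Med22 in all 16 lists, Rps27 with Rab13, Rpl18 with Sphk2 and Rps18 with B3galt4 and Vps52. Annotated snoRNA genes, which are typically processed from introns of such hosts, lie within 29 members (35.8%), against 372 of all protein-coding genes (1.70%). Over the 4 untreated libraries Rpsa, Rpl15 and Rpl29 had the widest ranges. Rpsa, the laminin receptor homologue of the small subunit, had ranks of 2380 and 584 in untreated KO macrophages and 2778 and 5904 in untreated WT macrophages. Rps27a, which is made as a fusion to ubiquitin, ranked from 554 to 6637 in treated and from 1725 to 3922 in untreated libraries, and shared its summit in all 16 lists.

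The summits sat at the starts of these genes. Among the 61 members with a strand, the best summit lay within 500 bp of the annotated start for 68.8% to 94.3% of those with a summit in treated and 94.6% to 96.5% in untreated libraries. Over all genes with a strand the shares were 48.3% to 74.5% in treated and 77.2% to 79.7% in untreated libraries. The lowest member share, 68.8%, came from WT replicate 2 at 6 h, and the next lowest was 84.2%. The best summit lay a median of 65 to 97 bp downstream of the start in treated and 74 to 96.5 bp in untreated libraries. Rps18 was an exception, with its best summit at the far end of the gene in 9 lists.

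In the shortened lists few ribosomal protein genes changed their place after R837, and those called moved down. Of the 78 members with a summit in at least 2 shortened lists, none was higher after R837 and 7 were lower over both genotypes (12 treated against 4 untreated libraries; limma adjusted p below 0.05). Of all 8475 genes tested, 5.77% were higher and 29.4% lower, so the 7 lower members are a smaller share than the background. The median change in rank score was -0.01 over members, -0.33 over all genes tested and -0.31 over the 1117 genes with a summit in every list. At an unadjusted p below 0.05 there were 9 members. For this and the later unadjusted counts the matching share over all genes is not given, so they have no background beside them. The count of called members depends on the lists and on what is ranked. With the lists as deposited 14 members were lower and none higher. With genes rather than summits ranked 3 were lower and 1 higher, and without the filter 4 were lower and none higher.

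The called members moved down the list, most of them from its upper part. Rplp0 ranked 121 to 3555 in treated libraries, with a median of 550, against 116 and 71 in KO and 118 and 211 in WT untreated libraries. The change was -2.19 ± 0.54 (SE, limma adjusted p = 0.00697), with overlap of the groups at the best treated ranks.

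Rpl3 ranked 13 to 129 in treated libraries, with a median of 26.5, against 4 and 10 in KO and 14 and 7 in WT untreated libraries. The change of -1.84 ± 0.47 (SE, limma adjusted p = 0.00822) was a move within the top of the list, and only KO replicate 1 at 2 h, at rank 13, fell among the untreated values. The Rpl3 call did not hold without WT untreated replicate 2 (-1.59, adjusted p = 0.0529) and without KO untreated replicate 1 (-1.51, adjusted p = 0.0565).

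Calls of smaller size were those of Rpl13a, Rps20 and Rps14. Rpl13a, which in human monocytes is known to leave the ribosome and silence inflammatory mRNAs after interferon-gamma, changed by -1.15 ± 0.36 (SE, limma adjusted p = 0.0271), Rps20 by -1.14 ± 0.37 (adjusted p = 0.0290) and Rps14 by -1.12 ± 0.37 (adjusted p = 0.0302). All had overlapping ranks, and none of the 3 calls held without KO untreated replicate 2 (-1.05, -0.92 and -0.86, with limma adjusted p = 0.0810, 0.112 and 0.129). Rpl13a was also lost without WT untreated replicate 1 (-1.08, adjusted p = 0.0692), as was Rps20 (-0.66, adjusted p = 0.109), and Rps14 without WT untreated replicate 2 (-0.92, adjusted p = 0.114). Rpl29 changed by -1.26 and was not called (limma adjusted p = 0.123), but passed without KO untreated replicate 2 (-2.03, adjusted p = 0.0357).

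By time, the calls lay mostly at 6 h. At 2 h none of the 78 members was called in KO macrophages (background 2.64% higher and 9.79% lower by limma adjusted p). There 4 members stood at an unadjusted p below 0.05. In WT macrophages 2 were lower and none higher (background 3.53% higher, 12.9% lower). With 1 library left out, the WT count at 2 h, in either direction, ran from 0 (without WT replicate 2 at 2 h) to 3. At 4 h 1 member was lower and none higher in KO (background 3.78% higher, 9.18% lower), and 1 was lower and none higher in WT macrophages (background 3.53% higher, 10.9% lower). The member lower in KO macrophages at 4 h was Rps14, with ranks 2645 and 1184, against 533 and 260 in untreated KO macrophages (-2.25 ± 0.63 SE, limma adjusted p = 0.0330). Its groups did not overlap. The call of Rps14 was lost without KO untreated replicate 2 (adjusted p = 0.162) or KO replicate 1 at 4 h (0.215).

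At 6 h, 10 members were lower and none higher in KO (background 5.12% higher, 11% lower), and 8 were lower and none higher in WT macrophages (background 3.1% higher, 14% lower; limma adjusted p below 0.05). As shares of the 78 members, the lower ones were near the background in KO and below it in WT macrophages. Together 12 members were called, 6 of them in both genotypes, among them Rplp0, Rps20, Rps14 and Rpl17. Of the 12, 8 host a snoRNA gene, as do 29 of all 81 members (35.8%), a difference that was not tested. The median change over the 78 members was -0.09 in KO and -0.19 in WT macrophages, against -0.14 and -0.40 over all genes tested, and the changes of the other members were not called. The calls depend on what is ranked: with genes rather than summits ranked, 5 members were lower and 1 higher in KO and 1 was higher and none lower in WT macrophages. With the 2 compared groups fitted alone, 1 member was called in KO and 0 in WT macrophages.

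Rps20, a protein of the small-subunit head that is ubiquitinated on collided ribosomes in human cells, ranked 5854 and 5346 at 6 h in KO macrophages, against 428 and 233 untreated (-4.15 ± 0.64 SE, limma adjusted p = 0.00100). In WT macrophages it ranked 3520 and 3447 at 6 h, against 256 and 966 untreated (-2.81 ± 0.64, adjusted p = 0.00949). At 2 h and 4 h its ranks were 207 to 877, within or near the untreated ones, and the drop stood at 6 h in all 4 libraries. The KO call held with any 1 library left out, and the WT call was lost without WT replicate 2 at 6 h (adjusted p = 0.0510).

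Rplp0 ranked 3555 and 1846 at 6 h in KO macrophages, against 116 and 71 untreated (-4.82 ± 0.94 SE, limma adjusted p = 0.00389). In WT macrophages it ranked 2801 and 1188 at 6 h, against 118 and 211 untreated (-3.53 ± 0.94, adjusted p = 0.0206). The groups did not overlap in either genotype. The WT call was lost without WT untreated replicate 1 (adjusted p = 0.116), WT untreated replicate 2 (0.0559) or WT replicate 1 at 6 h (0.128).

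Rpl13a ranked 2190 and 1895 at 6 h in KO macrophages, against 272 and 208 untreated (-3.10 ± 0.63 SE, limma adjusted p = 0.00513), and this call held with any 1 library left out. In WT macrophages the ranks were 871 and 3316, against 429 and 510 untreated, and the difference was not called. Rps14, a platform protein of the small subunit lost in the human 5q- syndrome, changed by -2.82 ± 0.63 in KO (limma adjusted p = 0.00872) and by -2.22 ± 0.63 in WT macrophages (adjusted p = 0.0295). Its KO call was lost without KO untreated replicate 2 (adjusted p = 0.0567) or KO replicate 1 at 6 h (0.0566), and its WT call without WT untreated replicate 2 (0.135) or either WT library of 6 h (0.123 and 0.0791).

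Further calls at 6 h were smaller or rested on fewer libraries. In KO macrophages they included Rpl3 (-3.04 ± 0.81 SE), Rps10 (-2.81 ± 0.86) and Rpl17 (-2.06 ± 0.61), with limma adjusted p = 0.0209, 0.0412 and 0.0344. Rpl3 was lost without KO untreated replicate 1 (0.141) or KO replicate 2 at 6 h (0.154), Rps10 in 13 of 16 fits with 1 library left out (up to 0.260) and Rpl17 in 4 of 16. In WT macrophages they included Rps13 (-2.88 ± 0.72), Rpl5 (-2.55 ± 0.68) and Rpl17 (-1.90 ± 0.61), with limma adjusted p = 0.0159, 0.0206 and 0.0477. Rpl5, which carries the 5S rRNA and binds the p53 regulator MDM2, was lost without WT untreated replicate 1 (0.103) or either WT library of 6 h (0.0615 and 0.113), Rps13 without WT untreated replicate 1 (0.0750) or WT replicate 2 at 6 h (0.152), and Rpl17 in 11 of 16 fits (up to 0.261). Without WT replicate 2 at 6 h the WT count was 3 and without WT untreated replicate 1 it was 4, and without KO untreated replicate 2 the KO count was 5 and without KO replicate 2 at 6 h it was 6. With the gene region extended by 3 kb rather than 1 kb, the KO change of Rpl13a was -0.94 (limma adjusted p = 0.278) and that of Rpl17 was -0.04 in KO and -0.63 in WT macrophages.

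The median rank score over the 78 members, averaged over the 2 libraries of a group, was 3.07, 3.40, 3.14 and 2.62 in KO macrophages untreated and at 2, 4 and 6 h, and 2.62, 2.91, 2.26 and 1.97 in WT macrophages.

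**Figure D3:**
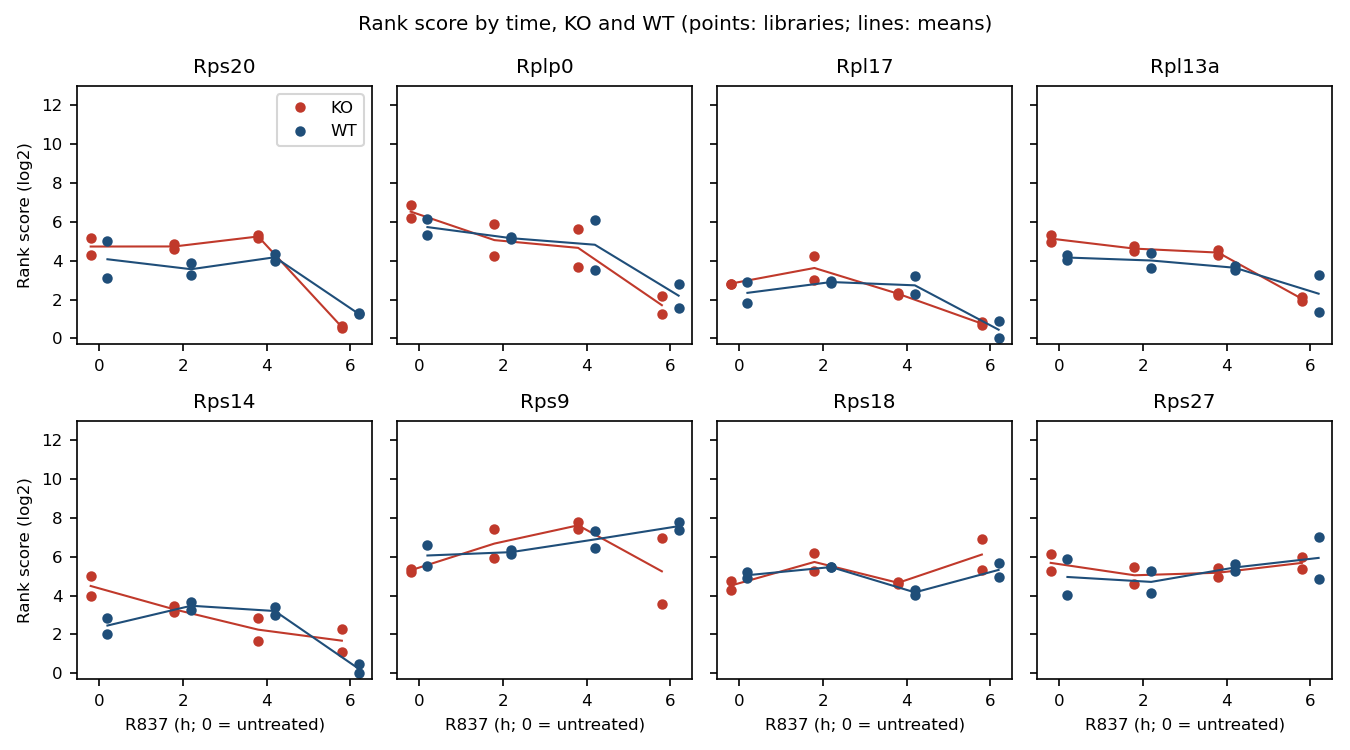
Rank score (log2 scale) of 8 ribosomal protein genes at 0 (untreated), 2, 4 and 6 h of R837, with KO points left of WT points, 1 point per library and lines through the means of 2. Rps20, Rplp0 and Rpl17 are lower at 6 h than untreated in both genotypes, while Rps9, Rps18 and Rps27, which were not called in any comparison with untreated libraries, stay in the upper part of the list.

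**Figure D4:**
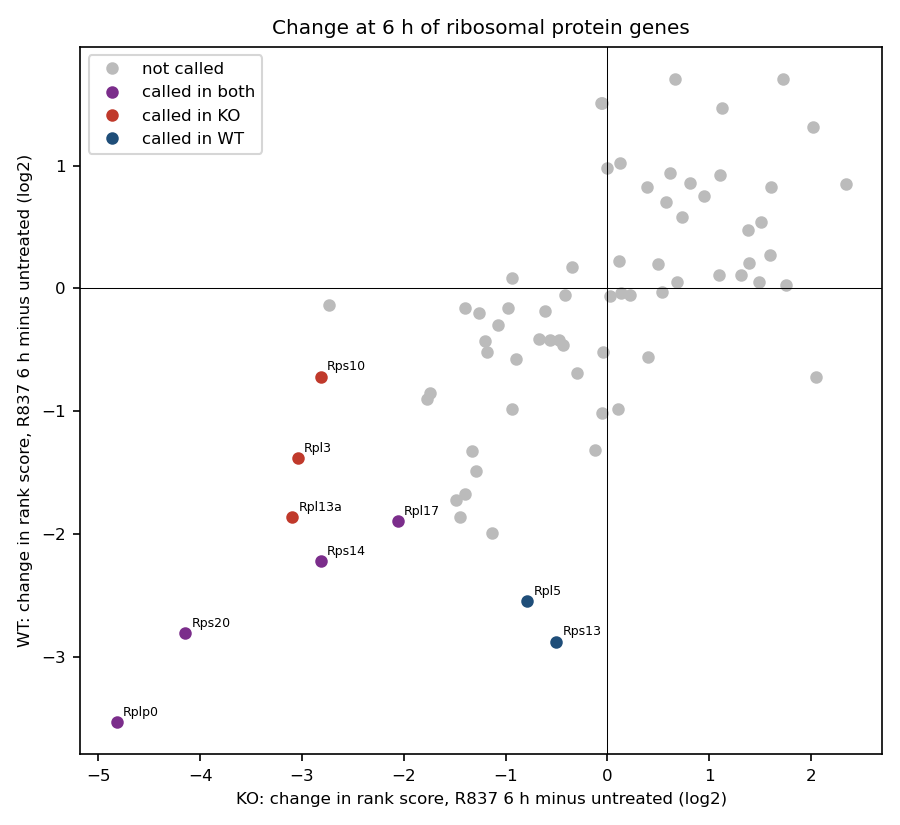
Change in rank score (log2 scale) at 6 h of R837 against untreated in KO (horizontal) and WT macrophages (vertical) for 73 of the 78 ribosomal protein genes tested, coloured by the genotype in which limma called them. The genes called in both lie at the lower left, and the members not called spread to both sides of 0 in each genotype.

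The untreated libraries share a run of codes with those of 2 h and not with those of 6 h, so 6 h was also set against the other treated times. Against 2 h and 4 h together, over both genotypes, 12 members were lower and 1 higher at 6 h (limma adjusted p below 0.05), where 2.99% of all genes tested were lower and 3.33% higher. The median change was -0.21 over members and 0.00 over all genes tested. In single libraries of 2 h and 4 h the median rank score was 0 to 0.40 over all genes tested, against 2.06 to 3.57 over members. Many of all genes thus stood at or near the lowest score and could hardly fall. The share of lower members was not compared with that of equally well placed genes. Rps20 (-3.51 ± 0.39 SE, limma adjusted p = 0.000498), Rpl35, a protein of the exit tunnel rim (-2.54 ± 0.36, 0.00166), Rpl17, at the tunnel rim as well (-2.29 ± 0.37, 0.00393), Rps14 (-2.10, 0.00757), Rpl13a (-2.001, 0.00935) and Rps15a (-1.56, 0.0155) held with any 1 library left out. Rpl35 was in no shortened list of 6 h (in the deposited lists it stood at ranks 11191 and 16991 in KO and was absent in WT macrophages), while its ranks were 580 to 2468 at 2 h and 4 h in KO and 750 to 3316 in WT macrophages.

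Further lower calls were Rplp0 (-2.97 ± 0.57 SE, limma adjusted p = 0.00927), Rpl10a (-1.86, 0.0347) and Rpl27a (-1.85, 0.0425). Rplp0 was lost without WT replicate 1 at 6 h alone (adjusted p = 0.0522), and without that library the count of 13 was 8. Rpl10a and Rpl27a were lost without most single libraries. Rpl18 was the 1 member higher at 6 h, with ranks 159 and 80 in KO and 74 and 150 in WT macrophages, against 213 to 579 in KO and 222 to 577 in WT macrophages at 2 h and 4 h (1.67 ± 0.41 SE, limma adjusted p = 0.0297). The Rpl18 ranks did not overlap, but its summit was shared with Sphk2, the change with summits given to the nearest gene was 0.21, and the call was lost without WT replicate 1 at 6 h (1.42, adjusted p = 0.128) and 5 other libraries. With the lists as deposited the count of 13 was 7, and with the region extended by 3 kb Rpl13a (-0.75) and Rpl17 (-0.98) were not called. The runs of codes differ between 2 h, 4 h and 6 h, so a difference between runs cannot be told apart from this one either.

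At 2 h of R837 the ribosomal protein genes held more summits per gene. In the shortened lists they held 141 to 184 summits at 2 h, 95 to 111 at 4 h and 97 to 121 at 6 h, against 89 to 98 in untreated libraries. Members with 2 or more summits numbered 44 to 61 at 2 h, against 13 to 20 in untreated libraries, with no overlap. Over all genes with a strand the shortened lists held 6847 to 7302 summits in 2719 to 4166 genes at 2 h. In untreated libraries they held 7236 to 7369 summits in 5303 to 5524 genes. Genes with a summit thus held more summits each at 2 h over all genes too, so this trait is not particular to members. In the lists as deposited the summits numbered 185 to 201 at 2 h, against 144 to 164 in untreated libraries, which also do not overlap although the 2 h lists were the shorter ones. Over all treated libraries, 7 members had a higher log2(summits + 1) than in untreated libraries and none a lower one (limma adjusted p below 0.05; background 7.16% higher and 21.6% lower), with a median change of 0.19 over members and -0.27 over all genes tested. The count was 3 without WT untreated replicate 1, 4 without WT untreated replicate 2, 12 without WT replicate 1 at 6 h, and 19 and 13 without replicate 1 or 2 of KO at 2 h.

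In KO macrophages Rps2 held 4 and 5 summits at 2 h, against 1 and 2 untreated, and in WT macrophages it held 4 in each library of 2 h, against 1 in each untreated one, and its change over all times was 0.66 ± 0.12 (SE, limma adjusted p = 0.00321). The Rps2 call was lost with the region extended by 3 kb (0.43, limma adjusted p = 0.0928) and with the deposited lists and list length as a covariate (0.31, 0.2797). Rpl3 held 1 to 5 summits in treated libraries, with a median of 3, against 1 or 2 in untreated libraries (0.78 ± 0.20, limma adjusted p = 0.0183), and was lost without WT untreated replicate 1 (adjusted p = 0.0598), WT untreated replicate 2 (0.0622) or KO untreated replicate 1 (0.0889). Rpl3 was also lost with the region extended by 3 kb (0.41, adjusted p = 0.0546). Rpl23 (0.54, limma adjusted p = 0.00875) and Rpl13 (0.48, 0.0127) held with any 1 library left out, but Rpl23 was lost with the best 5000 summits (0.36, 0.0912). Rpl10 (0.63, 0.0124) was lost without WT untreated replicate 1 (0.0617), Rps25 (0.67, 0.0272) without any 1 of the 4 untreated libraries (0.0811 to 0.0850) and Rps21 (0.35, 0.0314) without any of 10 libraries. All 3 were also lost with unextended regions and with summits given to the nearest gene only. Rps25 and Rps21 were lost with the best 5000 summits and without the filter as well. The best summit of Rps25 was shared with Trappc4 in all 16 lists. With the deposited lists and list length as a covariate, 6 members were called, among them Rpl3 and Rpl23, while Rpl13 (limma adjusted p = 0.178), Rpl10 (0.121), Rps21 (0.209) and Rps25 (0.540) were lost as Rps2 was.

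In the shortened lists the added summits lay in the gene bodies and at the far ends. Within 500 bp of the start, the 61 members with a strand held 55 to 58 summits at 2 h, against 54 to 56 in untreated libraries. Summits past the start region and before the far-end region numbered 16 to 33 at 2 h, against 0 to 4 in untreated libraries. Such summits rose over all genes with a strand as well, to 2968 to 3927 at 2 h, against 1873 to 2061 in untreated libraries. Far-end summits, within 1 kb past the annotated end or 500 bp before it, numbered 34 to 49 at 2 h, 12 to 23 at 4 h and 14 to 30 at 6 h, against 8 to 16 in untreated libraries. In the gene bodies and at the far ends the 2 h and untreated ranges did not overlap in these lists. Counting those in no other gene region, there were 19 to 25 at 2 h, against 2 to 7 in untreated libraries. Over all genes with a strand far-end summits numbered 716 to 924 at 2 h, against 535 to 663 in untreated libraries. These contrasts were smaller or turned round in the lists as deposited. In the gene bodies the members' summits there numbered 32 to 43 at 2 h, against 15 to 25 in untreated libraries. Over all genes with a strand, body summits were fewer at 2 h in the deposited lists, 4423 to 5694, against 7289 to 9443 in untreated libraries. There the members' far-end summits numbered 52 to 58 at 2 h, against 38 to 46 in untreated libraries, and made up 34.2% to 37.1% of their summits, against 32.0% to 36.5%. Those in no other gene region numbered 27 to 35 at 2 h, against 22 to 28 in untreated libraries, so the ranges overlapped. Over all genes with a strand far-end summits were fewer at 2 h in the deposited lists, 951 to 1164, against 1382 to 1741 in untreated libraries. In all 4 shortened lists of 2 h, 19 members had a far-end summit, 5 of these in no shortened untreated list, while 10 members had none in any shortened list. The same counts over all genes with a strand are not given, so these are a description and no trait of the members.

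**Figure D5:**
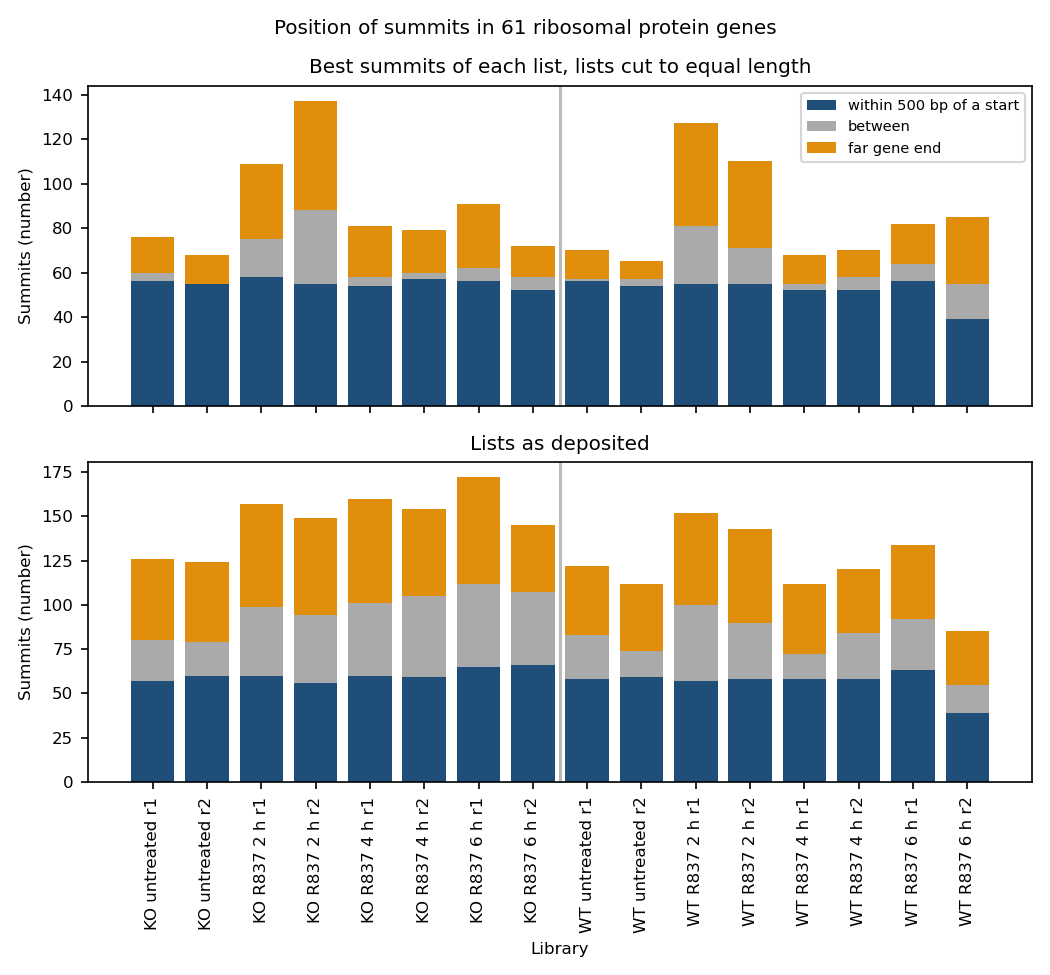
Number of summits of the 61 ribosomal protein genes with a strand in each library, stacked by position (within 500 bp of the start, between, far end), in the shortened lists (upper panel) and as deposited (lower panel), KO libraries left of WT libraries. In the shortened lists start summits number 39 in WT replicate 2 at 6 h and 52 to 58 in the other libraries, while far-end summits reach 34 to 49 at 2 h against 8 to 16 in untreated libraries. As deposited they number 52 to 58 at 2 h against 38 to 46 in untreated libraries.

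Ranks of the far-end summits were fitted in the same way for the 46 members with such summits, in at least 2 shortened lists, among 1373 genes. Over all treated times 3 members were higher, Rpl10 (2.57 ± 0.47 SE, limma adjusted p = 0.00353), Rps2 (1.03 ± 0.25, 0.0183) and Rpl23 (1.50 ± 0.39, 0.0248), and none lower (background 3.71% higher, 9.1% lower). The far end of Rpl10 ranked 243 to 2365 in the 12 treated libraries, while among untreated libraries WT replicate 2 had a summit there, at rank 1492. The best summit of Rpl10 lay at its far end in 3 lists and was shared with Dnase1l1 in 3. Its far-end summits may therefore not belong to Rpl10. At 2 h alone, 4 members were higher in KO (Rpl10, Rps15, Rps2 and Rps13; background 2.62%) and 6 in WT macrophages (Rpl23, Rpl35a, Rps25, Rpl13, Rps2 and Rpl26; background 7.79%), with changes of 1.50 to 3.51. The far end of Rps25 ranked 1061 and 1288 in WT macrophages at 2 h and had no summit in any of the 4 untreated libraries. Rps25 and Rps13 thus entered the fit through treated libraries alone, and their calls are a description. These counts moved with the libraries: with 1 library left out they were 2 to 12 over all times, 1 to 15 in KO and 3 to 10 in WT macrophages, the KO count being 15 without KO replicate 1 and 1 without KO replicate 2 at 2 h. In the WT fit, 3 remained in number without either WT untreated library, and 10 were called without WT replicate 2 or KO replicate 1 at 2 h. With the lists as deposited each of the 3 counts was 1. For start summits alone, 2 members were lower after R837, Rplp0 (-2.28 ± 0.55, limma adjusted p = 0.00874) and Rpl13a (-1.37 ± 0.34, 0.00903), and none was higher, against 26.7% lower and 2.4% higher among all genes tested.

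In the shortened lists no ribosomal protein gene differed in rank between KO and WT macrophages at any time by the adjusted test. The counts of members at limma adjusted p below 0.05 were 0 in untreated macrophages and 0 at 2, 4 and 6 h, where 1.37%, 0.0708%, 0.401% and 1.32% of all genes tested were called in either direction. At an unadjusted p below 0.05 they were 8, 9, 10 and 12 of 78, with no matching share over all genes given. The difference between the responses to R837 in KO and in WT macrophages passed for no member either (0 called by limma, against 0.932% of all genes). For this difference 6 members stood at an unadjusted p below 0.05, again with no matching share given. With KO replicate 1 at 6 h left out 3 members passed at 6 h, and with either untreated WT library left out 1 did.

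The members did lean to one side. Their rank score was higher in KO than in WT macrophages for 58 of 78 members untreated, 61 at 2 h, 66 at 4 h and 53 at 6 h, with median differences of 0.42, 0.41, 0.76 and 0.54, against 0.00, 0.00, 0.00 and 0.13 over all genes tested. Averaged over all times, 69 of 78 members (88.5%) were higher in KO macrophages, against 5553 of 8475 genes tested (65.5%) and 705 of the 1117 genes with a summit in every list (63.1%). The median of this average was 0.58 over members, 0.10 over all genes tested and 0.19 over those 1117 genes. None of the members was called by it, against 0.118% of all genes (limma adjusted p below 0.05). At an unadjusted p below 0.05 there were 21 members. The matching unadjusted share over all genes is not given, so this count cannot be weighed. The KO lists were longer than the WT lists at 4 h and 6 h, 22157 to 29760 against 8394 to 19710 summits before shortening, and the part of list length in this lean was not tested.

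The widest single differences between KO and WT belonged to genes that were well placed in 1 genotype. At 6 h Rpl30 ranked 450 and 1340 in KO macrophages, and 3368 in 1 WT library with no summit in the other (2.78 ± 0.72 SE, limma adjusted p = 0.0913). Rpl37 ranked 366 and 232 in KO and 1465 and 1835 in WT macrophages at 6 h (2.49, adjusted p = 0.145). Neither gene overlapped between KO and WT at 6 h, which follows largely from their being picked for wide differences, and neither passed in the shortened lists. With the lists as deposited both passed, Rpl30 at limma adjusted p = 0.0245. The best summit of Rpl37 was shared with Card6 in all 16 lists, so its difference may not belong to Rpl37.

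At 4 h Rpl23a ranked 318 and 204 in KO and 2597 and 1011 in WT macrophages (2.67 ± 0.65 SE, limma adjusted p = 0.146), and Rps15 924 and 371 in KO and 7428 and 1246 in WT macrophages (2.38, adjusted p = 0.525). At 2 h the widest were Rpl9, with 248 and 211 in KO and 635 and 2015 in WT macrophages (2.31, limma adjusted p = 0.863), and Rpsa, with 728 and 464 in KO and 2425 and 3377 in WT macrophages (2.30, adjusted p = 0.523). In untreated macrophages they were Rps14, with 533 and 260 in KO and 2031 and 1150 in WT (2.04 ± 0.63, limma adjusted p = 0.174), and Rpl24, with 1016 and 350 in KO and 2908 and 2027 in WT (2.03 ± 1.12, adjusted p = 0.588; -0.91 with the region extended by 3 kb). Each of these 6 genes ranked better in both KO than in both WT libraries. They were picked for their wide differences, so this follows largely from the choice and is a description. The best summit of Rpl9 was shared with Lias in all 16 lists, so its difference may not belong to Rpl9. Averaged over all times, Rpl30 differed by 1.58 ± 0.36 (limma adjusted p = 0.112) and Rpl27a by 1.56 ± 0.40 (adjusted p = 0.162).

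At the far ends, Rps25 ranked 4514 and 3368 in KO and 1061 and 1288 in WT macrophages at 2 h, and was lower in KO (-1.74 ± 0.39 SE, limma adjusted p = 0.0372; background 1.89% lower). Rps13 ranked 3910 and 2257 there in KO macrophages and had no far-end summit in either WT library. It was the 1 member called higher in KO (background 0.874%), but its far-end summits lay in 3 KO lists alone, so it entered the fit through the genotype where it is high and no test of it is given.

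Genes that work with the ribosomal proteins gave the following after R837 against untreated (limma adjusted p below 0.05). Of 26 other genes of translation with TOP mRNAs, 1 was higher and 2 were lower, with a median change of -0.32. The lower ones were Tpt1, a growth-associated TOP gene (-2.67 ± 0.40 SE, limma adjusted p = 0.000254), and the initiation factor subunit Eif3f (-0.80, 0.0174), and the higher one was Rpl7l1 (1.53, 0.0400). Of 39 ribosome biogenesis genes 1 was higher and 6 were lower, with a median of -0.14. They include Ncl, the nucleolar protein nucleolin (-2.21, limma adjusted p = 0.00692), and the RNA helicase gene Ddx21, the higher one (1.10). Of 22 regulators of ribosomal protein synthesis, 3 were higher, among them Larp1, whose product binds TOP mRNAs (1.25), and the kinase gene Eif2ak2 (1.33), and 3 were lower, among them Gabpb1, a subunit of an ETS factor (-3.38). Of 66 mitochondrial ribosomal protein genes 4 were higher and 18 lower, with a median of -0.32. Of all genes tested 5.77% were higher and 29.4% lower, with a median of -0.33, so the share of lower mitochondrial ribosomal protein genes was near that background. The median of the cytosolic members, -0.01, was the nearest to 0 of these lists.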

How the data were processed

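The submitters' processing notes name GSNAP, MACS2 and GRCm38, with versions not given in the sources used here. Reads were 75 nt, single end, from the AbFlex RNA Pol II antibody, per the labels' protocols. The deposited score of each summit is the authors' −log10 p-value or q-value, which of the 2 the files do not say, and served here only to order the summits of a library. Replicates had not been pooled. Depth is unknown, so no counting interval can be given.

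Genes were protein-coding RefSeq genes with the table's GRCm38.p6 coordinates, extended by 1 kb. Rank scores, summit numbers as log2(summits + 1), and ranks of start or far-end summits were fitted by limma 3.58.1 (R 4.3.3) with a mean for each group, all 16 libraries and a variance trend, and p-values were adjusted by Benjamini-Hochberg over all genes with such a summit in at least 2 shortened lists (8475 genes for rank score and summit number, 6002 for start and 1373 for far-end summits), at a threshold of 0.05. Errors after ± are standard errors of the fit (SE). The fit was tested on simulated data. Python 3.11.15 prepared the tables.

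The members, gene lists, motifs and tests were chosen with earlier results of these data known. The fits of 6 h against 2 h and 4 h, of KO against WT averaged over times, and of start and far-end summits were added after seeing the data. Named genes are the 10 best-ranked members, every called member reported here, the 5 largest changes after R837, the 2 largest KO against WT differences per time, the P-stalk genes, Rpsa, Rps27a, paralogs, the 3 most variable untreated members and those without a summit. Genes such as Rpl22, Rpl31, Rpl38, Rpl39, Rpl35a and Rpl26 were named after their values were seen. Alternatives changed list length, region, filter, ranking, groups fitted and replicate block, and left out each library. The input sample was not used here, and the values of a few members are not reported here.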

Additional observations from a re-analysis of the deposited data

How the results depend on the processing

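Replicate numbers did not pair libraries: over 28 pairs of groups the correlation of deviations was -0.11 to 0.18, above 0.1 in 1. With the replicate number as a block, 7 members were called for R837 against untreated, 10 for KO and 7 for WT at 6 h, 12 for 6 h against 2 h and 4 h, 8 for summit number, and at far ends in KO at 2 h 2 against 4. With the lists as deposited the called members were 14 for R837 against untreated (7 as reported), 9 for WT at 2 h (2), 15 for WT at 6 h (8), 3 for KO at 2 h (0), 0 for KO at 4 h (1), 3 for KO against WT at 6 h (0), 7 for 6 h against 2 h and 4 h (13), 6 at starts (2), and at far ends 1 each over all times, in WT at 2 h and in KO at 2 h (3, 6 and 4). Only the compared groups gave 0 for WT at 2, 4 and 6 h, 0 for KO at 4 h and 1 for KO at 6 h. Ranking genes gave 4 for R837 against untreated, 1 for WT and 6 for KO at 6 h and 0 for KO at 4 h. Without a filter the counts were 4 for R837, 0 for WT at 2 h, 3 for WT at 6 h, 0 for KO at 4 h and 7 for 6 h against 2 h and 4 h. Unextended regions gave 4 for WT at 2 h and 3 for KO at 4 h, regions extended by 3 kb 2 for WT at 4 h and 12 for summit number (7), a summit in at least 6 lists 1 for KO at 2 h, and the nearest gene only 2 for KO at 4 h and 1 for KO against WT at 6 h. With the best 5000 summits, 67.9 members had a summit on average in treated and 72.8 in untreated libraries, against 73.7 and 76.5 as reported, and 78 in untreated libraries as deposited. Reversed values were the untreated difference of Rpl24 between KO and WT, -0.91 with regions extended by 3 kb (2.03 as reported), and the summit number of Rps21 after R837, -0.20 with unextended regions (0.35). The causes were not tested.

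With 1 library left out, counts ran from 5 to 10 for R837 against untreated, 0 to 1 for KO and 0 to 3 for WT at 2 h, 0 to 3 for KO and 1 to 2 for WT at 4 h, 5 to 10 for KO and 3 to 9 for WT at 6 h, and 8 to 14 for 6 h against 2 h and 4 h. They ran from 0 to 1 for KO against WT untreated, 0 to 0 at 2 h and 4 h, 0 to 3 at 6 h, 0 to 2 over all times and 0 to 1 for the response. For summit number they ran from 3 to 19, for starts from 2 to 3, and for far ends from 2 to 12 over all times, 1 to 15 in KO and 3 to 10 in WT at 2 h. Read depth is unknown and most summits tie in score, so small shifts of rank cannot be resolved.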
